A study of Mus musculus with 26 samples.

Results

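The 10 genes described here are clade B serpins (ov-serpins) listed as epidermal: *Serpinb1a*, *Serpinb2*, *Serpinb3a*, *Serpinb3b*, *Serpinb3c*, *Serpinb3d*, *Serpinb5*, *Serpinb6c*, *Serpinb7* and *Serpinb12*. They were taken by symbol from the 56738 gene symbols of the count table, which holds 28 clade B serpins in all. RNA was sequenced from primary keratinocytes of 2-day-old C57BL/6NJ mice, 5 wild-type (WT) and 8 homozygous for a whole-body *Pla2g4d* deletion (KO). *Pla2g4d* encodes a cytosolic phospholipase A2 and transacylase, and the KO line, made with CRISPR and backcrossed, lacks 1 exon of the gene. Cells of each mouse were grown for 4 days in medium with 0.06 mM calcium, a condition that favours undifferentiated keratinocytes, and were then left untreated (basal) or given IL17A and TNFα at 20 ng/ml each for 24 h, cytokines of psoriatic skin. Wells of the same mouse were pooled. This gave 26 libraries in 4 groups: 5 WT and 8 KO libraries under basal conditions, and 5 WT and 8 KO libraries in the presence of cytokines. The comparisons ask how the cytokines change each serpin in each genotype, how KO cells differ from WT cells in each condition, and whether the cytokine response depends on the genotype.

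Serpins are protease inhibitors that expose a flexible reactive centre loop as bait. A target protease that cuts this loop is trapped in a covalent complex while the loop folds into the body of the serpin. Clade B members lack a classical signal peptide and work mostly inside cells, where they guard against proteases that leak from lysosomes and granules, and several are abundant in stratified epithelia. In these cells 3 patterns were seen. *Serpinb3a* and *Serpinb3b* rose about 10-fold with cytokines in both genotypes, *Serpinb7*, *Serpinb12* and *Serpinb6c* fell in both, and the abundant *Serpinb2* and *Serpinb5* moved by less than 1.5-fold. Under basal conditions the fitted level of each of the 9 members tested was lower in KO than in WT cells. For *Serpinb2* and *Serpinb5* the difference was small (log2 fold change -0.03 and -0.10). Of all 16893 genes tested, 8433 had a lower fitted level in KO cells, as did all 24 genes of suprabasal differentiation examined. Only 2 of the 9 members passed the thresholds on adjusted p and fold change, where 1.07% of all genes were called lower.

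Of the 10 genes, 8 lie on chromosome 1 of GRCm39 (GENCODE vM39 annotation) within one serpin cluster and 2 on chromosome 13. On chromosome 1 the order is *Serpinb5* (chr1:106788875-106811078, plus strand), *Serpinb12* (chr1:106859355-106884814, plus), *Serpinb3a* (chr1:106973317-106980033, minus), *Serpinb3d* (chr1:107005897-107011236, minus), *Serpinb3b* (chr1:107081670-107206101, minus), *Serpinb3c* (chr1:107198930-107206101, minus), *Serpinb7* (chr1:107327385-107380419, plus) and *Serpinb2* (chr1:107428593-107463208, plus). *Serpinb1a* (chr13:33026042-33035224, minus) and *Serpinb6c* (chr13:34061197-34089714, minus) are on chromosome 13. All are protein coding, with 7 or 8 exons in the canonical transcript. *Serpinb12*, which fell with cytokines, and *Serpinb3a*, which rose, are neighbours among the members.

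The 4 *Serpinb3* genes are close copies, which matters both for their biology and for counting their reads. Their coding sequences were identical at 92.9% of aligned positions between *Serpinb3a* and *Serpinb3b*, 93.1% between *Serpinb3b* and *Serpinb3c* and 86.3% between *Serpinb3c* and *Serpinb3d*, against 53.0 to 56.7% between *Serpinb3a* and the members outside this group. The 72 coding bases below run from the hinge through the reactive centre loop, read from GRCm39 on the coding strand, with capitals at bases that differ from *Serpinb3a*. They are shown because this stretch largely sets which protease a serpin traps.
Serpinb3a (chr1:106973833-106973904, minus strand): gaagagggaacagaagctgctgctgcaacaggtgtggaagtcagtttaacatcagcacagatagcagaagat
Serpinb3b (chr1:107082186-107082257, minus strand): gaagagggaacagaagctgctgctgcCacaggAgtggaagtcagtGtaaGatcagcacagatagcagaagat
Serpinb3c (chr1:107199443-107199514, minus strand): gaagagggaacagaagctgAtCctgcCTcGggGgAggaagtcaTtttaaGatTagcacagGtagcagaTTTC
Serpinb3d (chr1:107006010-107006081, minus strand): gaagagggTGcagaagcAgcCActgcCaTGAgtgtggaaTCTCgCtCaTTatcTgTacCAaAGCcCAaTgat
The loops of *Serpinb3a* and *Serpinb3b*, the pair that rose with cytokines, differ at 4 of 72 bases, while *Serpinb3c* differs from *Serpinb3a* at 15 and *Serpinb3d* at 27. Between *Serpinb3a* and *Serpinb3b* these differences change neighbouring residues, from leucine and threonine to valine and arginine. A low count of bases therefore does not show that the loops trap the same proteases, which was not tested.

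The libraries were deep, with 42072745 to 78102858 counts each, so that the spread between mice and not counting limited most values. Of the low counts from 1 to 20, 83.2% were even, as when 1 read pair adds 2 counts, and the counting error is then larger than the counts alone would give. Keratinocyte genes dominated: 11 genes of basal keratinocytes summed to 35463 to 48769 CPM (counts scaled to the library size after TMM normalization) in each library. The 15 immune genes summed to 21.2 to 58.1 CPM, with medians of 28.7 and 45.8 CPM in basal and treated WT libraries and 31.6 and 33.3 CPM in KO libraries, of which *Cd68* made up 14.8 to 40.4, *Lyz2* 1.56 to 16.3 and *Csf1r* 0.701 to 3.97 CPM. *Cd207* and *Cd3g* were at 0 in 26 of 26 libraries, and *Ptprc* was at 0 in 16 and at up to 0.116 CPM. The 8 fibroblast genes summed to 2.6 to 9.44 CPM and the 6 endothelial genes to 1.37 to 5.96 CPM. Melanocyte genes were present, with 6 genes summing to 306 to 628 CPM. *Pla2g4d* counts, which cover the whole gene and do not test the loss of one exon, were 3.35 ± 1.36 CPM in basal WT cells (SD, n = 5) and 2.06 ± 0.716 CPM in basal KO cells (SD, n = 8). With cytokines they were 52.2 ± 14.9 in WT cells and 38.1 ± 9.55 CPM in KO cells.

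Per kilobase of exon, the unit used to compare genes with each other, *Serpinb2* was the most abundant member in each of the 4 groups. *Serpinb2* encodes plasminogen activator inhibitor 2, an inhibitor of urokinase. It reached 420 ± 43.7 CPM per kb in basal WT cells (SD, n = 5), followed by *Serpinb5* (maspin, a clade B serpin not known to inhibit proteases) at 229 ± 17.1 CPM per kb. *Serpinb6c* was at 22.3 ± 5.45 and *Serpinb12* at 11 ± 2.6 CPM per kb. *Serpinb1a* (4.03 ± 1.09), *Serpinb7* (3.49 ± 1.24), *Serpinb3b* (2.8 ± 0.418) and *Serpinb3a* (2.41 ± 0.728 CPM per kb) came next, and neighbours among these 4 did not differ beyond their spread. *Serpinb3c* (0.225 ± 0.119) and *Serpinb3d* (0.118 ± 0.148 CPM per kb) were last and also overlapped.

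With cytokines the order in WT cells changed below the leading pair. *Serpinb3b* (27.1 ± 5.47) and *Serpinb3a* (26.9 ± 10.3 CPM per kb) stood directly behind it, ahead of *Serpinb6c* (8.09 ± 1.62), *Serpinb1a* (6.13 ± 1.39) and *Serpinb12* (3.87 ± 1.51 CPM per kb). *Serpinb2* made up 60.4 ± 1.98% of the summed level per length of the 10 genes in basal WT cells and 63.7 ± 2.66% with cytokines, and 62.7 ± 1.83% and 63.5 ± 1.4% in KO cells. *Serpinb5* took 33 ± 2.04% in basal WT cells and 24.7 ± 2.54% with cytokines, and 32.6 ± 2.3% and 28.8 ± 2.22% in KO cells. The share of *Serpinb3a* and *Serpinb3b* in WT cells went from 0.351 ± 0.117% and 0.408 ± 0.0853% to 4.21 ± 1.41% and 4.29 ± 0.666%, and in KO cells from 0.192 ± 0.0629% and 0.21 ± 0.068% to 2.38 ± 0.534% and 3.18 ± 0.568%. The summed level itself was 695 ± 61.5 CPM per kb in basal WT cells, 628 ± 45.2 in WT cells with cytokines, 655 ± 43.1 in basal KO cells and 540 ± 44 in KO cells with cytokines. The shares depend on the length used for each gene. With the longest transcript as length, *Serpinb2* made up 66.1 ± 1.85% and *Serpinb5* 27.6 ± 1.83% in basal WT cells. In treated WT cells *Serpinb1a* (8.68 ± 1.97) then lay above *Serpinb6c* (8.26 ± 1.65 CPM per kb), within their spread.

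**Figure D1:**
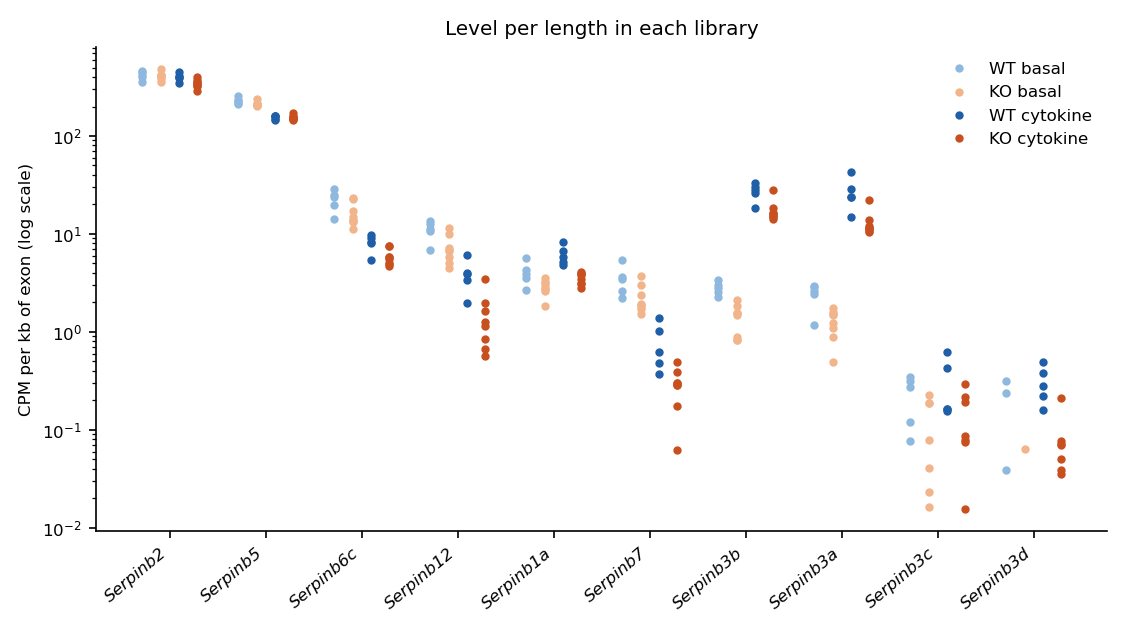
Level of each of the 10 clade B serpins in each library (points) in CPM per kb of exon on a log axis, by group. Libraries with 0 counts are not drawn: 1 basal and 1 cytokine-treated KO library for *Serpinb3c*, and 2 basal WT, 7 basal KO and 1 cytokine-treated KO library for *Serpinb3d*.

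*Serpinb3a* and *Serpinb3b* rose with IL17A and TNFα in 13 of 13 mice. They are mouse relatives of human SERPINB3 and SERPINB4, the squamous cell carcinoma antigens, which inhibit cysteine cathepsins and chymotrypsin-like serine proteases. *Serpinb3a* was at 4.83, 4.29, 3.96, 1.9 and 4.7 CPM in the basal libraries of WT mice 1 to 5 and at 24.3, 46.6, 70.2, 39.1 and 38.7 CPM in their cytokine-treated libraries. In KO cells its lowest, median and highest values were 0.805, 2.21 and 2.88 CPM under basal conditions and 17.1, 18.9 and 36.6 CPM with cytokines. Basal and treated libraries did not overlap in either genotype. The log2 fold change of *Serpinb3a* was 3.48 (standard error, SE, 0.29, 11.2-fold, adjusted p = 1.23e-10) in WT and 3.37 (SE 0.24, 10.3-fold, adjusted p = 2.3e-12) in KO cells. Each adjusted p given here is from the quasi-likelihood test of edgeR, adjusted over all genes tested by the Benjamini-Hochberg method.

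*Serpinb3b* behaved alike. Its basal WT libraries held 5.16, 4.72, 5.7, 3.85 and 4.37 CPM and the treated ones 31.4, 50.9, 56.1, 47.2 and 44.5 CPM. The KO libraries spanned 1.4 to 3.59 CPM (median 2.58) under basal conditions and 24 to 47.2 CPM (median 27.1) with cytokines, again without overlap. The log2 fold change was 3.27 (SE 0.23, 9.66-fold, adjusted p = 2.2e-12) in WT and 3.64 (SE 0.19, 12.5-fold, adjusted p = 2.14e-15) in KO cells. Within single mice the log2 change ran from 2.60 to 3.61 in WT and from 2.73 to 4.29 in KO cells for *Serpinb3b*, and from 2.33 to 4.35 and from 2.65 to 4.66 for *Serpinb3a*.

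The other 2 genes of this group were near the detection limit. *Serpinb3c* was at 0.129 to 0.567 CPM (8 to 33 counts) in basal WT libraries and at 0.26 to 1.03 CPM with cytokines, and at up to 0.373 CPM (26 counts) in basal and 0.489 CPM (21 counts) in treated KO libraries. Its cytokine effect, 0.45 (SE 0.79, adjusted p = 0.725) in WT and 0.31 (SE 0.67, adjusted p = 0.792) in KO cells, was smaller than its error. *Serpinb3d*, with a mean of 7.23 counts a library, was under the filter on low counts (a mean normalized count of 10) and was not among the 16893 genes tested. It summed to 42 counts in the 5 basal and 110 counts in the 5 treated WT libraries, and to 4 counts in the 8 basal and 32 counts in the 8 treated KO libraries. With no filter its cytokine effect was 1.36 (SE 1.09, adjusted p = 0.461) in WT and 2.91 (SE 1.02, adjusted p = 0.0479) in KO cells, the latter against a group in which 7 of 8 libraries were at 0.

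Identical sequence could move few reads among these copies: of all 150-base windows of the annotated transcripts, 3.4% of *Serpinb3a* were found unchanged in another gene (*Gm8080*), and 0% of *Serpinb3b*, *Serpinb3c* and *Serpinb3d*. The annotated exons of *Serpinb3b* and *Serpinb3c* overlap by 45 bases on one strand. Reads with mismatches were not examined.

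*Serpinb1a*, mouse counterpart of the leukocyte elastase inhibitor, was called higher with cytokines in WT cells. It was at 15.7, 10.9, 12, 7.52 and 9.9 CPM in the basal WT libraries and at 18.5, 16.1, 23, 14.3 and 13.4 CPM in the treated ones, so that the groups overlapped, although it was higher with cytokines in 5 of 5 WT mice. The log2 fold change was 0.61 (SE 0.17, adjusted p = 0.00644) in WT cells. It was 0.49 without WT replicate 3 and 0.55 without WT replicate 4, which is under 1.5-fold. In KO cells *Serpinb1a* went from 5.16 to 9.86 CPM (median 8.07) to 7.75 to 11.3 CPM (median 10.1), a log2 fold change of 0.29 (SE 0.14, adjusted p = 0.105) that did not pass the test, with 7 of 8 mice higher.

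*Serpinb7* showed the largest fall among the members in both genotypes. Loss of human SERPINB7 underlies Nagashima-type palmoplantar keratosis, a disorder of the skin barrier. *Serpinb7* was at 4.41, 10.7, 5.15, 6.88 and 7.11 CPM in basal WT libraries and at 0.734, 1.21, 2.71, 0.954 and 1.99 CPM with cytokines. In KO cells it spanned 3 to 7.33 CPM (median 3.73) under basal conditions and 0.122 to 0.977 CPM (median 0.577, 6 to 46 counts) with cytokines. Basal and treated libraries did not overlap in either genotype, and the value fell in 13 of 13 mice. The log2 fold change was -2.18 (SE 0.36, 4.52-fold lower, adjusted p = 1.55e-05) in WT and -2.96 (SE 0.30, 7.77-fold lower, adjusted p = 4.96e-09) in KO cells.

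*Serpinb12*, an inhibitor of trypsin-like serine proteases, fell next. The basal WT libraries held 17.7, 35.6, 32.6, 28 and 29.4 CPM and the treated ones 5.14, 10.4, 16, 8.71 and 10 CPM. KO libraries spanned 11.8 to 29.6 CPM (median 17.7) under basal conditions and 1.47 to 8.96 CPM (median 3.14) with cytokines, and no group of a genotype overlapped the other. The log2 fold change was -1.51 (SE 0.35, adjusted p = 0.00107) in WT and -2.32 (SE 0.29, adjusted p = 1.88e-07) in KO cells.

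*Serpinb6c*, a member of the *Serpinb6* group on chromosome 13, changed by nearly the same amount in both genotypes. It went from 70.5, 140, 96.6, 118 and 123 CPM to 26.7, 44.7, 39.7, 40.2 and 47.5 CPM in WT libraries, and from 54.9 to 115 CPM (median 70.6) to 23.3 to 37 CPM (median 28) in KO libraries. The log2 fold change was -1.46 (SE 0.19, adjusted p = 6.06e-07) in WT and -1.47 (SE 0.15, adjusted p = 8.87e-09) in KO cells. Its change within single mice was also the most even of the 3 genes that fell, from -1.65 to -1.28 in WT and from -1.63 to -1.18 in KO mice, against -3.12 to -0.92 and -4.77 to -2.17 for *Serpinb7*.

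These 3 genes fell with cytokines, as did most of the genes of suprabasal differentiation examined. Over 24 such genes, among them *Krt1*, *Krt10*, *Flg* and *Ivl*, the summed level spanned 7361 to 14408 CPM (median 10722) in basal WT libraries and 3860 to 8942 CPM (median 7779) in treated ones, and 6607 to 13315 CPM (median 7143) and 3572 to 7415 CPM (median 4270) in KO libraries. With cytokines 13 of the 24 were called lower and 1 higher in WT cells (5.26% and 8.65% of all genes). In KO cells 14 were called lower and 1 higher (4.55% and 6.33%). In bulk RNA, fewer cells of a type and less RNA per cell cannot be told apart, and the part of these genes in the serpin values was not tested. With cytokines *Serpinb3b* went the other way from the summed suprabasal genes. Between genotypes it was lower in KO cells (-1.02 under basal conditions, -0.65 with cytokines), as were the fitted values of all 24 suprabasal genes.

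**Figure D2:**
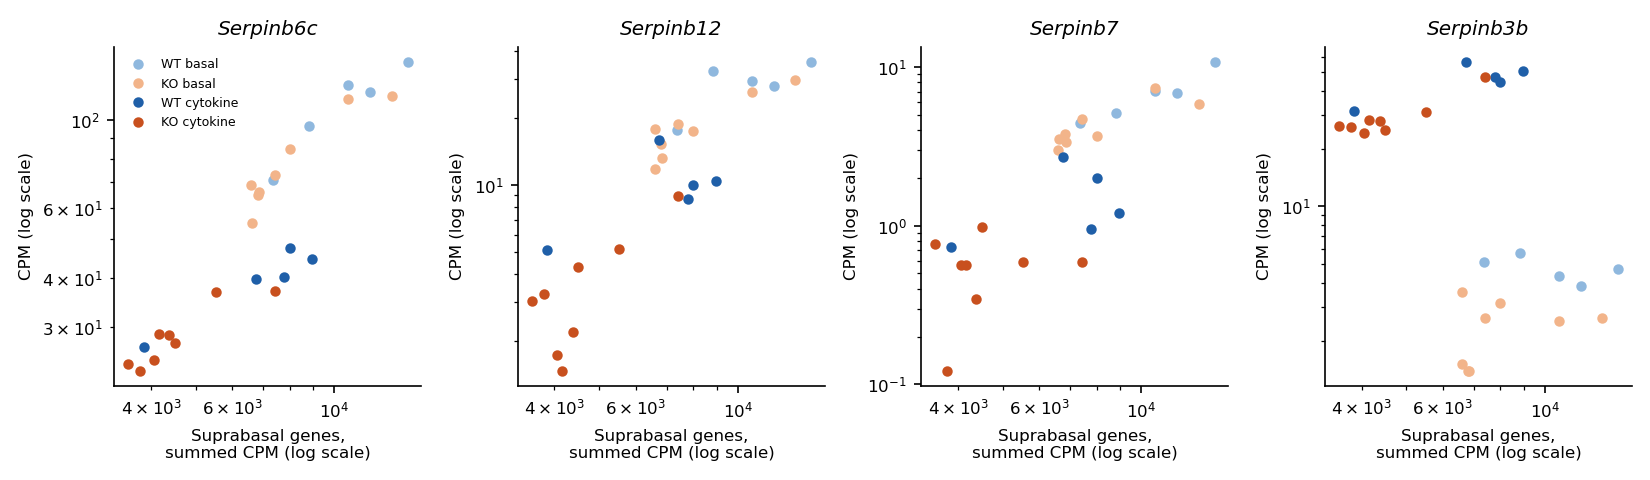
CPM of *Serpinb6c*, *Serpinb12*, *Serpinb7* and *Serpinb3b* (y axes, log scale) against the summed CPM of 24 suprabasal genes (x axes, log scale), 1 point for each of 26 libraries, coloured by group. Within a genotype, treated libraries lie below basal libraries for *Serpinb6c*, *Serpinb12* and *Serpinb7* and above them for *Serpinb3b*. On the x axis treated and basal libraries overlap in both genotypes.

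The abundant *Serpinb5* and *Serpinb2* stayed within 1.5-fold in the fit of all libraries, but *Serpinb5* fell in 5 of 5 WT and 8 of 8 KO mice. *Serpinb5* was at 587, 711, 642, 630 and 606 CPM in basal WT libraries and at 443, 443, 443, 412 and 401 CPM with cytokines, and at 563 to 659 CPM (median 586) and 401 to 479 CPM (median 426) in KO libraries. The groups did not overlap, and the log2 fold change was -0.57 (SE 0.05, adjusted p = 9e-10) in WT and -0.46 (SE 0.04, adjusted p = 5.45e-10) in KO cells, past the adjusted p of 0.1 but within 1.5-fold. Without WT replicate 1 or 3 the WT value was -0.62 or -0.59, which is past 1.5-fold. *Serpinb2* was at 1017, 1286, 1123, 1205 and 1324 CPM in basal and 996, 1112, 1164, 1133 and 1284 CPM in treated WT libraries, a log2 fold change of -0.07 (SE 0.08, adjusted p = 0.598). In KO libraries it spanned 1008 to 1372 CPM (median 1170) and 815 to 1124 CPM (median 976), with a log2 fold change of -0.26 (SE 0.06, adjusted p = 0.00221), lower in 8 of 8 mice and within 1.5-fold.

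A gene was called where the adjusted p was under 0.1 and the fold change over 1.5. By this rule 3 of the 9 members tested were called higher with cytokines in WT cells (8.65% of all genes tested) and 3 lower (5.26%). In KO cells 2 were called higher (6.33% of all genes) and 3 lower (4.55%). The median log2 fold change of the 9 members was -0.07 in WT and -0.26 in KO cells, beside 0.01 and 0.00 over all genes. Members moved in both directions.

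**Figure D3:**
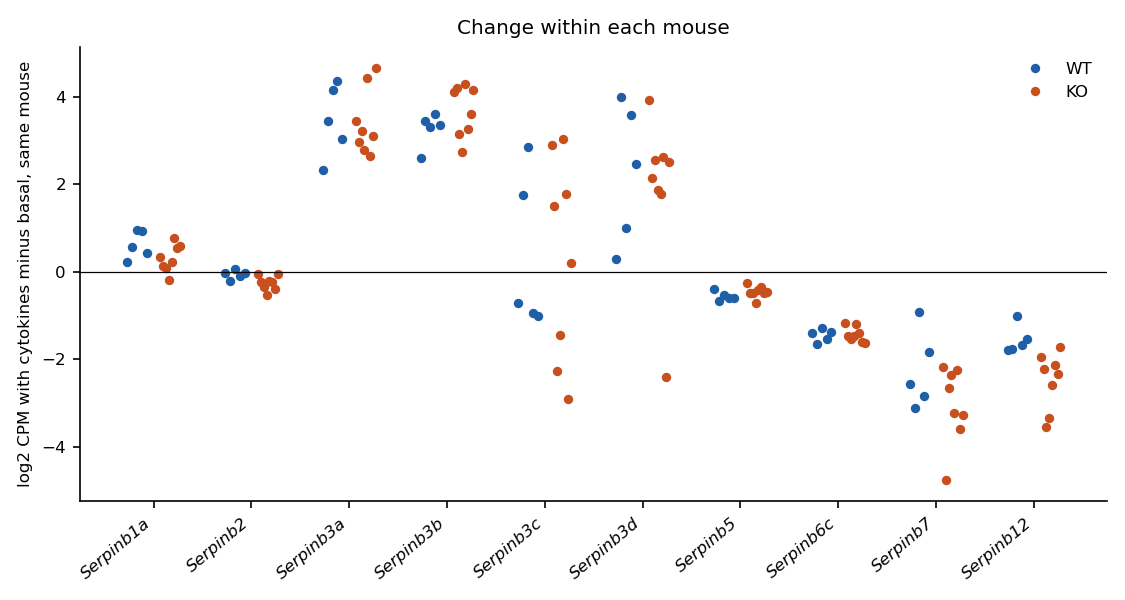
Change in log2 CPM with cytokines within each mouse (y axis, treated minus basal library) for each of the 10 genes, 5 WT and 8 KO mice. All 13 mice lie above 0 for *Serpinb3a* and *Serpinb3b* and below 0 for *Serpinb5*, *Serpinb6c*, *Serpinb7* and *Serpinb12*, while *Serpinb3c* and *Serpinb3d*, with few counts, scatter widely.

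In KO cells under basal conditions *Serpinb3a* and *Serpinb3b* were lower than in WT cells. The basal KO libraries of *Serpinb3b* reached 3.59 CPM at most and the WT libraries began at 3.85 CPM, so that they did not overlap. Its mean was 2.35 ± 0.831 CPM in KO (SD, n = 8) and 4.76 ± 0.709 CPM in WT cells (SD, n = 5), and the log2 fold change was -1.02 (SE 0.20, adjusted p = 0.00113). *Serpinb3a*, at 2.05 ± 0.69 CPM in KO and 3.94 ± 1.19 CPM in WT cells, had a log2 fold change of -0.94 (SE 0.26, adjusted p = 0.0195), and its groups overlapped through WT replicate 4 (1.9 CPM). Fitted with a replicate block for the mouse, the adjusted p of *Serpinb3a* was 0.303.

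The other members had values below 0 as well, but none was called. *Serpinb1a* had a log2 fold change of -0.49 (SE 0.15, adjusted p = 0.0404) and *Serpinb6c* one of -0.46 (SE 0.17, adjusted p = 0.0888), both within 1.5-fold. *Serpinb7* (-0.64, SE 0.30, adjusted p = 0.199), *Serpinb12* (-0.61, SE 0.30, adjusted p = 0.228) and *Serpinb3c* (-1.23, SE 0.72, adjusted p = 0.335) missed the threshold on adjusted p. *Serpinb5* (-0.10, adjusted p = 0.185) and *Serpinb2* (-0.03, adjusted p = 0.866) differed least. With no filter on low counts *Serpinb3d* had a log2 fold change of -3.70 (SE 1.08, adjusted p = 0.0425), from 42 counts in WT and 4 counts in KO libraries.

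In all, 2 of 9 members were called lower in basal KO cells and 0 higher, where 1.07% of all genes (181 genes, and 299 without WT replicate 1) were called lower. For 1 member all KO libraries lay below all WT libraries, as for 1.12% of all genes. The median log2 fold change of the 9 members was -0.61, beside 0.00 over all genes. The 24 suprabasal genes also lay below 0 in 24 of 24 cases, with a median of -0.31 and 5 called lower, and their part in the serpin values was not tested. The fit with a replicate block called *Serpinb7* (-0.64, adjusted p = 0.046) and *Serpinb12* (-0.66, adjusted p = 0.0257). *Serpinb6c* (-0.59, adjusted p = 0.0104), *Serpinb7* (-0.77, adjusted p = 0.0863) and *Serpinb12* (-0.75, adjusted p = 0.095) were called without WT replicate 1, *Serpinb1a* (-0.60, adjusted p = 0.0129) without WT replicate 4 and *Serpinb12* (-0.74, adjusted p = 0.0576) without KO replicate 8.

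In the presence of cytokines 5 of 9 members were called lower in KO than in WT cells and 0 higher, where 0.556% of all genes (94 genes) were called lower. With 1 mouse left out the genes called lower ran from 28 without WT replicate 3 to 299 without WT replicate 1. *Serpinb7* and *Serpinb12* differed most. *Serpinb7* was at 0.565 ± 0.255 CPM in KO (SD, n = 8) and 1.52 ± 0.815 CPM in WT cells (SD, n = 5), and the log2 fold change was -1.42 (SE 0.33, 2.68-fold lower, adjusted p = 0.0301), with overlapping groups. The treated KO libraries held only 6 to 46 counts of *Serpinb7* each, which limits this value. *Serpinb12* was at 3.76 ± 2.45 CPM in KO and 10.1 ± 3.93 CPM in WT cells, a log2 fold change of -1.42 (SE 0.31, 2.67-fold lower, adjusted p = 0.0228). The KO mouse with most *Serpinb12* (replicate 8, 8.96 CPM) lay above 2 of 5 WT libraries, and the WT mouse with least (replicate 1, 5.14 CPM) lay below 2 of 8 KO libraries. The same 2 mice stood out in the suprabasal genes, with 7415 CPM in KO replicate 8, the highest of the treated KO libraries, and 3860 CPM in WT replicate 1, the lowest of the treated WT libraries. Without WT replicate 3 the adjusted p of *Serpinb12* was 0.128 and that of *Serpinb7* 0.166, and for *Serpinb7* it was 0.104 without WT replicate 5 and 0.17 with the replicate block.

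*Serpinb3a* and *Serpinb3b* were lower in KO cells with cytokines too. *Serpinb3a* was at 21.2 ± 6.46 CPM in KO and 43.8 ± 16.8 CPM in WT cells, a log2 fold change of -1.05 (SE 0.23, adjusted p = 0.0228, and 0.151 without WT replicate 3). *Serpinb3b* was at 29.4 ± 7.51 CPM in KO and 46 ± 9.29 CPM in WT cells, a log2 fold change of -0.65 (SE 0.18, adjusted p = 0.0728). Both overlapped through KO replicate 8, whose 36.6 and 47.2 CPM stood far above the other 7 KO libraries. These reached 22.7 and 31.1 CPM at most, below the lowest WT library (replicate 1) at 24.3 and 31.4 CPM. Without KO replicate 8 the log2 fold change was -1.20 (adjusted p = 0.00305) for *Serpinb3a* and -0.77 (adjusted p = 0.0114) for *Serpinb3b*. The call of *Serpinb3b* was not firm: with 1 mouse left out its adjusted p ran from 0.0111 to 0.232 and it was called in 4 of 13 cases, lost without WT replicate 2, 3, 4 or 5 and without KO replicate 1, 2, 3, 5 or 6.

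*Serpinb1a* had the lowest adjusted p of the members in this comparison. Its treated KO libraries reached 11.3 CPM at most and the treated WT libraries began at 13.4 CPM, so that they did not overlap, as for 0.432% of all genes with all KO libraries below all WT libraries. The mean was 9.81 ± 1.31 CPM in KO and 17.1 ± 3.88 CPM in WT cells, a log2 fold change of -0.80 (SE 0.15, 1.74-fold lower, adjusted p = 0.0101). It was called in each of the 13 fits that left out 1 mouse, with an adjusted p of at most 0.072. *Serpinb6c* (-0.46, SE 0.17, adjusted p = 0.182), *Serpinb2* (-0.22, SE 0.07, adjusted p = 0.124) and *Serpinb3c* (-1.37, SE 0.71, adjusted p = 0.37) did not pass, and *Serpinb5* had a value of 0.01 (SE 0.05, adjusted p = 0.97). *Serpinb3d*, tested with no filter on low counts, had -2.14 (SE 0.96, adjusted p = 0.315). The median of the 9 members was -0.80, beside -0.01 over all genes, and that of the 24 suprabasal genes -0.66, with 24 of 24 below 0 and 11 called lower.

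**Figure D4:**
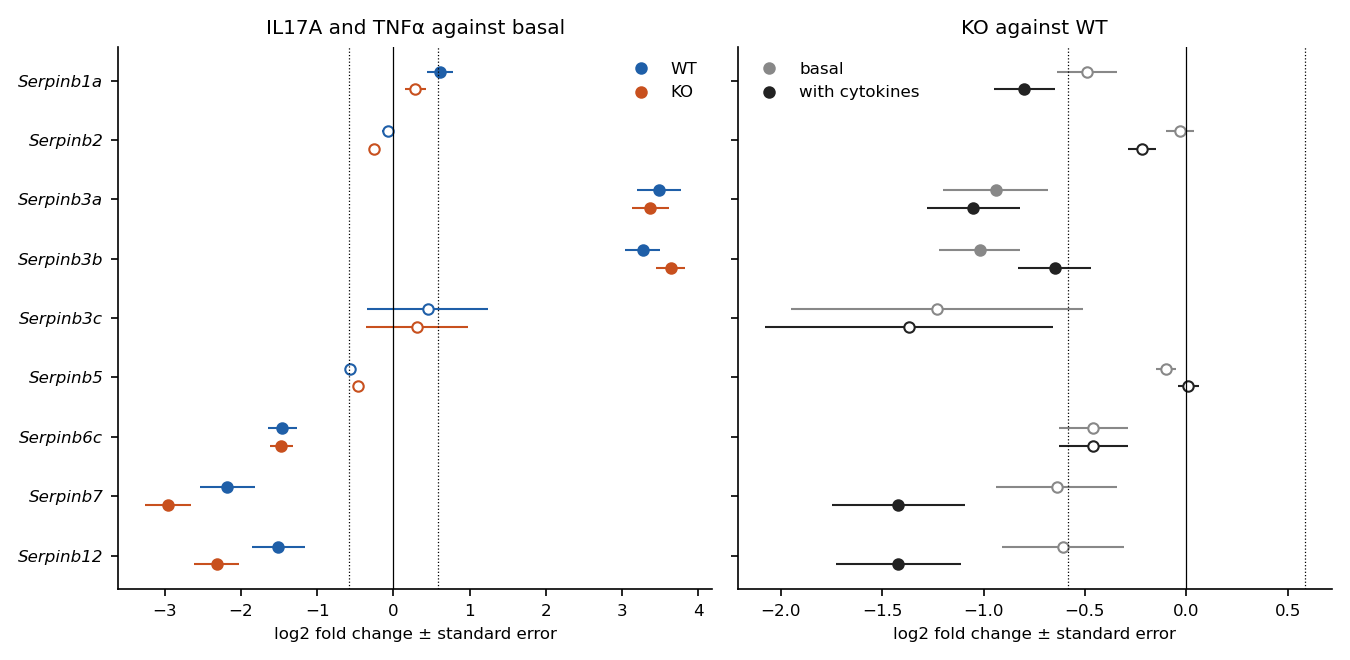
Log2 fold changes (x axes) with standard errors for the 9 members tested: cytokine-treated against basal cells in WT and KO (left), and KO against WT cells under basal conditions and with cytokines (right). Filled points were called (adjusted p under 0.1 and over 1.5-fold), and dotted lines mark 1.5-fold. The cytokine effects run from -2.96 to 3.64, and the genotype effects from -1.42 to 0.01.

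In the fit without a block, the cytokine response was not shown to depend on the genotype for any of the 9 members tested. The interaction of genotype and cytokines called 0 of 9 members by edgeR and 0 by DESeq2, where edgeR called 0.219% of all genes (37 genes, and 18 to 91 with 1 mouse left out), and no member had an unadjusted p under 0.05. *Serpinb12* (-0.81, SE 0.44, adjusted p = 0.607) and *Serpinb7* (-0.78, SE 0.45, adjusted p = 0.633), both with the larger fall in KO cells, had the largest values. With the mouse as a replicate block, which follows the pairing of the libraries, *Serpinb12* had an interaction of -0.89 (adjusted p = 0.0685) and was called. *Serpinb3b* had 0.37 (SE 0.27, adjusted p = 0.748) and *Serpinb3a* -0.11 (SE 0.36, adjusted p = 0.973). For *Serpinb6c* the value was -0.00 (SE 0.24, adjusted p = 0.998). A p over the threshold does not show that the genotypes responded alike.

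**Figure D5:**
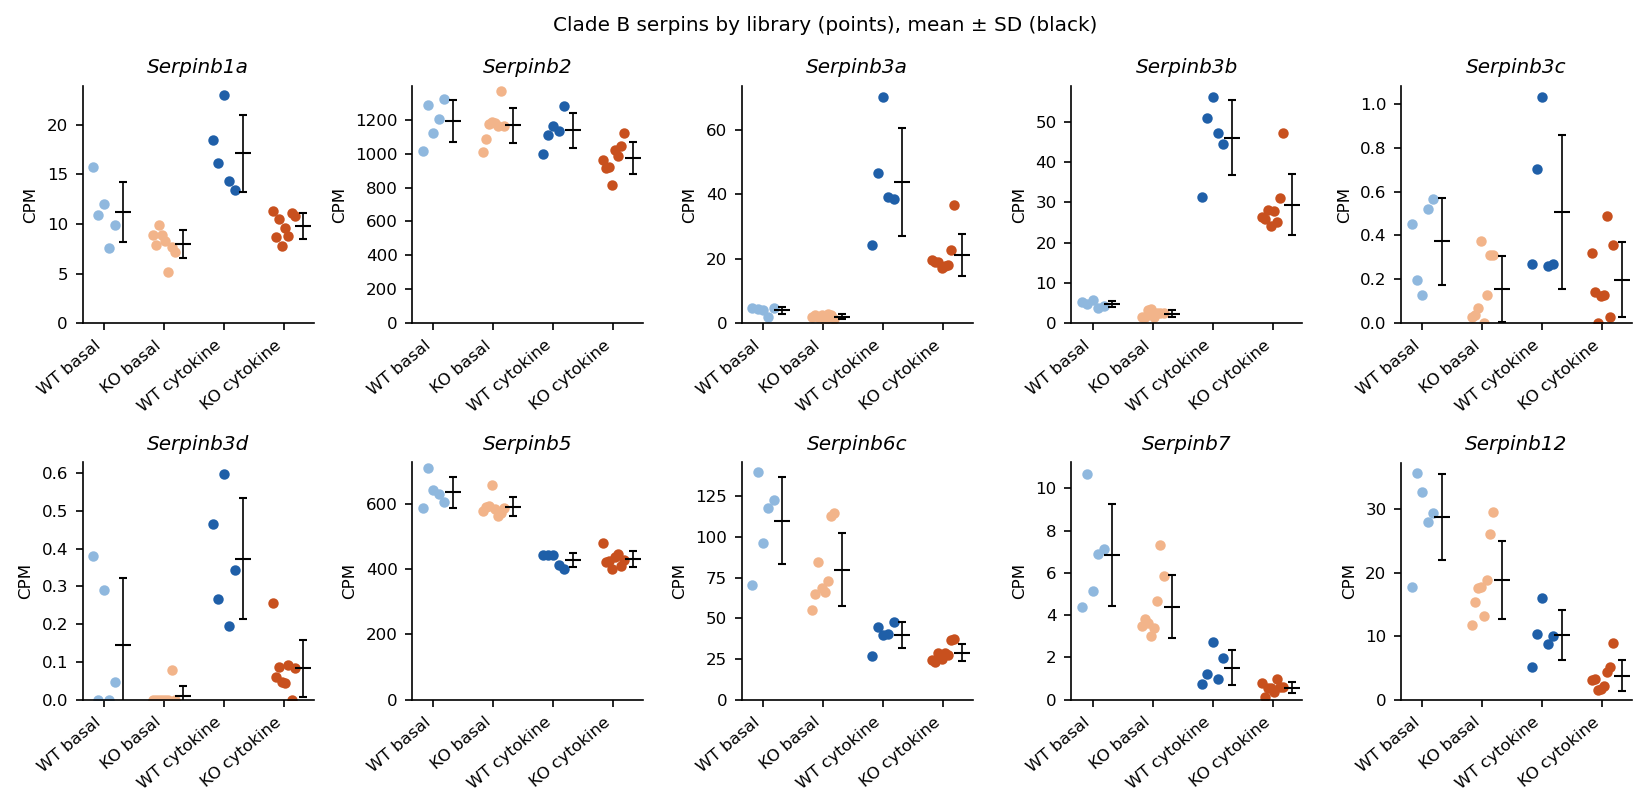
CPM of each of the 10 genes (y axes from 0) in each library (points) with the mean ± SD of each group (black), for 5 WT and 8 KO libraries under basal conditions and with cytokines. *Serpinb3a* and *Serpinb3b* stand higher with cytokines, *Serpinb6c*, *Serpinb7* and *Serpinb12* stand lower.

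*Serpinb7* and *Serpinb12*, which fell most with cytokines and were both lower in treated KO cells, were also alike in 1 feature of their promoters. Both hold the AP-1 letters TGANTCA in the 250 bases before the canonical start, with the first base at -38 from that start. The search covered both strands and allowed any base at N, which is looser than the AP-1 consensus TGA(G or C)TCA. *Serpinb7* holds TGAGTCA, a form of the consensus, while *Serpinb12* holds TGATTCA, which is not. Each window lies inside the annotated bounds of its gene, and other annotated starts were not searched. Both promoters are printed from GRCm39 with the AP-1 letters, and in *Serpinb12* the letters GGANNTTCC of a κB core, in capitals.
Serpinb7 promoter (chr1:107350162-107350411, plus strand): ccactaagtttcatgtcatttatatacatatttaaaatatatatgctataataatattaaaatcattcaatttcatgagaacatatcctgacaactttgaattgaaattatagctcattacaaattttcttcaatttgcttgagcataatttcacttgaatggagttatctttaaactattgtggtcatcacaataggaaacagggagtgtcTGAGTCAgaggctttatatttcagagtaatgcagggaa
Serpinb12 promoter (chr1:106861922-106862171, plus strand): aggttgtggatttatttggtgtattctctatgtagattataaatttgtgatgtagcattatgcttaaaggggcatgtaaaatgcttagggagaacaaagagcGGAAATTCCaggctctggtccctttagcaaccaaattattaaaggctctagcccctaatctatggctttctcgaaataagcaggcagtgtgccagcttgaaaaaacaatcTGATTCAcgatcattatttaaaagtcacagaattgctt
*Serpinb2* (at -94) and *Serpinb5* (at -110) also held the AP-1 letters, both as TGAATCA. So 4 of 10 members held these looser letters, against 6.2% of 21757 promoters of the same length. Only *Serpinb7* among the members held the consensus, and the share of all promoters with the consensus was not counted. The κB letters were in 1 of 10 members, *Serpinb12* at -148, against 3.9% of promoters, and the C/EBP core letters TTGNNCAA in 0 of 10, against 5.7%. The AP-1 and κB letters of *Serpinb12* share no base. *Serpinb6c*, which also fell with cytokines, held none of the 3 sets of letters. Outside the 10 members, *Serpinb10*, whose counts also fell with cytokines, held the AP-1 letters at -78. *Serpinb3a* and *Serpinb3b*, which rose alike, held none of the 3 and their promoters were identical at 49.8% of aligned positions, less than those of *Serpinb3b* and *Serpinb3c* (88.1%) or *Serpinb3a* and *Serpinb3d* (73.5%). Such a match is a description of letters and says nothing about binding.

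Libraries of a group differed in their serpin levels, and some members shared these differences. Across the 26 libraries of 13 mice, the deviations of log2 CPM from the group means correlated at 0.80 (Pearson's r) between *Serpinb2* and *Serpinb6c*, 0.69 between *Serpinb2* and *Serpinb12*, 0.68 between *Serpinb6c* and *Serpinb12* and 0.64 between *Serpinb3a* and *Serpinb3b*. *Serpinb5* correlated with no other member at over 0.28. Outside clade B, the genes most like *Serpinb6c* were *Sdr9c7* (0.96) and *Elovl4* (0.95). For *Serpinb2* they were *Ttc39b* (0.90) and *Eea1* (0.89), and for *Serpinb12* *Clec2e* and *Sirt2* (0.86 each). The nearest genes of the other members were less alike, with *Rhbg* (0.77) and *Mfsd7a* (0.72) for *Serpinb3b*, *Rnf2* (0.75) and *Vav3* (0.74) for *Serpinb3a*, *Becn1* (0.76) and *Sdf4* (0.75) for *Serpinb7*, *Dync1i2* (0.75) and *Lypla1* (0.74) for *Serpinb5*, *Pgk1* (0.74) and *Isoc1* (0.73) for *Serpinb1a*, and *Gk5* (0.73) and *Gm18068* (0.72) for *Serpinb3c*. The points share mice and libraries, and the correlations are descriptions.

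Of the other 18 clade B serpins, 10 were over the filter on low counts. With cytokines 3 were called higher and 1 lower in WT cells (8.65% and 5.26% of all genes), and 2 higher and 2 lower in KO cells (6.33% and 4.55%). *Serpinb1b*, a relative of *Serpinb1a*, rose from 1.96 ± 0.523 to 3.95 ± 0.963 CPM in WT cells (log2 fold change 1.01, SE 0.19, adjusted p = 7.54e-05) and from 2.55 ± 0.265 to 4.45 ± 0.743 CPM in KO cells (0.80, SE 0.15, adjusted p = 6.31e-05), and its genotype effect with cytokines was 0.17 (SE 0.16, adjusted p = 0.697). *Serpinb10* fell, with -1.38 (SE 0.16, adjusted p = 8.74e-08) in WT and -1.16 (SE 0.13, adjusted p = 2.35e-08) in KO cells, but its exons share 275 bases on one strand with those of *Serpinb2*, so that its counts are uncertain. *Serpinb9e* (2.29, adjusted p = 0.0241) and *Serpinb9g* (2.14, adjusted p = 0.054) rose in WT cells from 0.0874 and 0.155 CPM, and *Serpinb9e* (1.33, adjusted p = 0.0876) also in KO cells. Of the 150-base windows of *Serpinb9g* 30.9% are also found in other *Serpinb9* genes, which makes its value uncertain, and 2% of those of *Serpinb9e*. *Serpinb11* fell in KO cells (-0.66, adjusted p = 0.0559) and was lower in KO than in WT cells with cytokines (-1.04, adjusted p = 0.0718), and *Serpinb9b* was higher in basal KO cells (0.81, adjusted p = 0.0751). The median genotype effect of these 10 genes was 0.29 under basal conditions, with 7 above 0 and 3 below, and -0.04 with cytokines, with 5 on each side.

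The proteases that such serpins can meet were read from 2 lists. Of 10 cysteine cathepsins, 9 were tested, and 3 were called higher and 0 lower with cytokines in WT cells (8.65% and 5.26% of all genes): *Ctsz* (0.78, adjusted p = 1.2e-05), *Ctsl* (0.74, adjusted p = 0.000108) and *Ctsh* (0.71, adjusted p = 4.2e-09). *Ctsl*, which encodes cathepsin L, went from 987 ± 187 to 1651 ± 365 CPM. In KO cells 1 was called higher (6.33% of all genes), *Ctsz* (0.59, adjusted p = 2.02e-05), while *Ctsh* (0.57, adjusted p = 2.69e-09) and *Ctsl* (0.55, adjusted p = 0.00023) were just within 1.5-fold. The median of the 9 cathepsins was 0.52 in WT and 0.20 in KO cells, and 0 were called between genotypes in either condition.

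Of 22 serine proteases, 15 were tested. In WT cells 6 were called higher and 2 lower with cytokines (8.65% and 5.26% of all genes), and in KO cells 6 higher and 4 lower (6.33% and 4.55%), with medians of 0.57 and 0.43. *Tmprss11d*, a membrane-bound airway-type trypsin-like protease, rose most (2.69, adjusted p = 8.11e-05 in WT and 2.96, adjusted p = 7.44e-07 in KO cells), followed by *Prss27* (1.99, adjusted p = 1.75e-05 and 1.62, adjusted p = 9.92e-06). *Plau*, which encodes urokinase, the target of the *Serpinb2* product, rose from 189 ± 18.6 to 379 ± 13.2 CPM in WT cells (1.01, adjusted p = 2.57e-12) and also in KO cells (0.78, adjusted p = 2.73e-12). The values of *Serpinb2* itself were -0.07 (adjusted p = 0.598) in WT and -0.26 (adjusted p = 0.00221) in KO cells. *Prss8* (0.72, adjusted p = 0.00648 in WT and 0.62, adjusted p = 0.00344 in KO cells) and *Tmprss11e* (0.67, adjusted p = 0.000361 and 0.81, adjusted p = 9.6e-07) rose in both genotypes. *Hpn* had 0.79 (adjusted p = 0.23) in WT cells and was called in KO cells (1.01, adjusted p = 0.0418). *Klk5*, a kallikrein that acts in the shedding of corneocytes, fell from 35.4 ± 11.5 to 16.3 ± 6.85 CPM in WT (-1.11, adjusted p = 0.00485) and from 24.4 ± 9.16 to 9 ± 3.17 CPM in KO cells (-1.43, adjusted p = 2.66e-05). *Tmprss4* fell in both (-0.77, adjusted p = 0.000221 and -0.85, adjusted p = 2.44e-06) and was the 1 serine protease called between genotypes, lower in KO cells with cytokines (-0.65, adjusted p = 0.0168).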

How the data were processed

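RNA of 26 libraries from 13 mice (5 WT, 8 KO) was sequenced by the authors as strand-specific paired-end libraries. Per the submitters' processing notes and the study's methods, reads were aligned to mm39 with STAR 2.7.10b and the authors deposited raw counts per gene from featureCounts 2.0.6 with the GENCODE M31 annotation. Strand and multi-mapping settings of the counting are not given in the sources used here. The authors also deposited log2 normalized counts with a pseudocount of 1. These matched the log2 of the counts for all 10 serpins, and 50 other symbols differed by over 0.01. Genes with a mean normalized count over 10 (16893) entered a single quasi-likelihood fit of the 4 groups (edgeR 4.0.16, R 4.3.3, TMM normalization, no covariate), with Benjamini-Hochberg adjustment over all 16893. The standard error is the log2 fold change divided by the root of its F statistic. CPM are TMM-normalized, with a prior count of 1 for log2 CPM. CPM per kb used the union of annotated exons, with the longest transcript as an alternative length. Replicates are mice. No 2 libraries of a group were alike within sampling noise (lowest chi-square per degree of freedom 7.22).

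Basal and treated libraries of the same number come from the same mouse, which pairs them by number. After removing group means, the 2 libraries of a mouse correlated at 0.000509 to 0.254 (median 0.106), and sex-linked genes matched in 13 of 13 mice. Litter and batch are not given in the labels. Alternatives were DESeq2 size factors, DESeq2 1.42.0, limma 3.58.1 on the deposited log2 values, a fit without filter or with filterByExpr, a fit of 2 groups at a time, a replicate block for the mouse (a term for each mouse, or limma voom with a mouse correlation for the genotype effects), a covariate for sex from sex-linked genes, other thresholds and each mouse left out. The call rule (adjusted p under 0.1, over 1.5-fold) follows the methods of the study. The procedure was tested on simulated data. Named genes were the 10 members, up to 6 called genes with the largest change for each list of other clade B serpins, cathepsins and serine proteases and each comparison, and the 2 genes outside clade B with the highest correlation to each member. The members and lists were chosen with earlier results of these data known. Positions, exons and sequences are from GRCm39 and GENCODE vM39, in which 52342 of 56738 symbols matched. It is not the annotation used for counting.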

Additional observations from a re-analysis of the deposited data

Results flagged for a closer look

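Far libraries were sought in log2 CPM within 40 groups of libraries (10 genes in 4 groups). Of these groups, 5 held 1 library whose gap to its nearest neighbour was larger than Dixon's limit for the range of the group. Chance flags about 1 in 20 groups.

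*Serpinb3a* was lowest in WT basal replicate 4, at 1.9 CPM, where the other 4 libraries were at 3.96 to 4.83 CPM. In KO cells with cytokines, replicate 8 was highest for both *Serpinb3a* (36.6 CPM) and *Serpinb3b* (47.2 CPM). The same mouse had the highest *Serpinb12* value and the highest summed level of suprabasal genes in that group. *Serpinb3d* was at 0.0774 CPM (4 counts) in KO basal replicate 7 and at 0 in the other 7 libraries. *Serpinb5* was at 659 CPM in KO basal replicate 4, with the others at 563 to 594 CPM. The basal genotype effect of *Serpinb3a* was -1.12 (adjusted p = 0.00726) without WT replicate 4, and its cytokine effect in KO cells 3.15 and that of *Serpinb3b* 3.53 without KO replicate 8. *Serpinb5*, not called, had a basal genotype effect of -0.13 (adjusted p = 0.062) without KO replicate 4.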

How the results depend on the processing

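Of 936 values recomputed (9 members, 5 comparisons), 883 kept their direction and side of the thresholds, 18 lost the call, 11 gained it and 24 changed sign. Members called numbered 6, 5, 2, 5 and 0 for the cytokine effect in WT and in KO cells, the genotype effect under basal conditions and with cytokines, and the interaction. With 1 mouse left out they ran from 5 to 7, 5 to 5, 2 to 5, 1 to 5 and 0 to 0. The 5 came without WT replicate 1, and the genotype effect with cytokines called 1 member without WT replicate 3 and 3 without WT replicate 5. With no threshold on the fold change 4 members were called in the basal genotype effect. The replicate block, fitted because libraries are paired by mouse, called 1 member (*Serpinb12*) in the interaction, and changed no call other than those given above. *Serpinb12* was called in the basal genotype effect when only the 2 groups were fitted (-0.61, adjusted p = 0.0877), and *Serpinb3b* lost its call with cytokines in limma on the log2 values (adjusted p = 0.116).

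Changes of sign were of values that were not called. The interaction of *Serpinb6c* was 0.01 with no filter, with the block and in limma, and 0.00 with filterByExpr, and ran from -0.06 to 0.05 with a mouse left out. With a mouse left out the interaction of *Serpinb3a* ran from -0.34 to 0.13 and that of *Serpinb3c* from -0.50 to 0.51 (0.11 with the block). The cytokine effect of *Serpinb3c* ran from -0.21 to 0.79 in WT and from -0.06 to 0.72 in KO cells, the genotype effect of *Serpinb2* under basal conditions from -0.09 to 0.01, and that of *Serpinb5* with cytokines from -0.02 to 0.03. The cause was not tested.

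Counts over all genes moved too: the cytokine effect in KO cells called 1837 genes and 3305 with no filter, the genotype effect with cytokines 119 and 180 with only the 2 groups, and the interaction 37, 62 with DESeq2 and 80 with the block. The basal genotype effect called 272 genes higher and 181 lower in KO cells, but 236 and 296 with the block and 238 and 274 with no filter. With 1 mouse left out, the genotype effect with cytokines called 40 (without WT replicate 3) to 558 genes (without WT replicate 1; 290 without KO replicate 8), the basal genotype effect 342 to 827 (without WT replicate 1) and the interaction 18 to 91 (without WT replicate 1). Depth limits *Serpinb3c* and *Serpinb3d*, and also *Serpinb7* in treated KO libraries (6 to 46 counts), on which its cytokine, genotype and interaction values rest in part. All KO mice carry 1 deletion line, which the paper states was bred from homozygous animals after backcrossing. KO and WT mice would then come from different litters, so genotype and litter cannot be told apart. Batch is unknown, and no protein was measured.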
